A study of Mus musculus with 2 samples.

Results

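Tenascins, thrombospondins, CCN proteins and periostin are matricellular proteins, which are secreted into the extracellular matrix and act on cells there more than they bear load. The set described here held 10 genes, Tnc, Tnxb, Thbs1, Thbs2, Thbs3, Thbs4, Ctgf, Cyr61, Wisp2 and Postn, out of 22812 genes that could be compared. They were taken by gene name from the probes of mouse whole-genome arrays, with every probe of each gene kept. Ctgf, Cyr61 and Wisp2 are the older names, used by the arrays, of Ccn2, Ccn1 and Ccn5. The 10 genes had 17 probes, of which 15 were well above background in the arch or the thoracic RNA on both arrays, and none was saturated.

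The study compared the part of the aorta that is prone to atherosclerosis with a part that resists it. Root and arch of the aorta, with the first 2 mm of the thoracic aorta, made up the arch pool, and the next 6 mm made up the thoracic pool. Both came from the same 6 apoE-/- mice, 3 males and 3 females aged 16 weeks. Mice without apolipoprotein E clear remnant lipoproteins poorly and develop atherosclerosis, so both pools carried the deletion and no wild-type aorta was compared. The aortas had been perfused with Triton X-100, a detergent, to take off the endothelium, and equal volumes of RNA from the 6 mice were pooled for each segment. Amplified RNA of both pools was labelled with red Cy5 or green Cy3 and competed on 2 Agilent arrays, the second a dye swap of the first. Array 1 carried thoracic RNA in red and arch RNA in green, and array 2 the reverse. With 1 pool per segment no spread between mice could be had and no p-value is given, so every ± below is the SD between the 2 arrays of the same pools, a technical error only.

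Matricellular proteins are made in quantity during development, wound repair and vessel injury and less in quiescent tissue. Tenascins are large proteins with epidermal growth factor-like and fibronectin type III repeats, thrombospondins bind calcium and matrix and their first members hold angiogenesis back, and CCN proteins bind integrins and heparan sulfate. In vessel walls they are known from smooth muscle cells, fibroblasts and macrophages, and several are induced by transforming growth factor beta, by mechanical stretch and by the coactivators YAP and TAZ, which act through TEAD factors.

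Upstream sequence from RefSeq (build GRCm38.p6), the 250 bases before each annotated start, was found for 7 of the 10 genes, with 9 starts among them. None was found for Thbs1, Ctgf or Wisp2, which were therefore not searched. Tnc is shown because it was the only gene of the set to pass the limits on size used below, and Thbs4 and Cyr61 because theirs were the only windows of the set with a TEAD match. The strings searched on both strands were GGAATG for a TEAD site, CAGACA for a SMAD element, TGANTCA for an AP-1 site, TATAAA for a TATA box, and the CArG box bound by serum response factor. Capitals mark the matches in each sequence, written 5′ to 3′ on the gene's strand. The Tnc window lies at chr4:64047016-64047265 on the minus strand, the Thbs4 window at chr13:92794819-92795068 on the minus strand and the Cyr61 window at chr3:145649986-145650235 on the minus strand.
Tnc: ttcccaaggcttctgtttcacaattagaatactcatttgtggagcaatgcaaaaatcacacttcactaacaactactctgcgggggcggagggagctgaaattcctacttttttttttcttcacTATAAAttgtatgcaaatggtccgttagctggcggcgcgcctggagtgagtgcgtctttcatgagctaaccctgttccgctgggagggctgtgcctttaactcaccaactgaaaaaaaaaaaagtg
Thbs4: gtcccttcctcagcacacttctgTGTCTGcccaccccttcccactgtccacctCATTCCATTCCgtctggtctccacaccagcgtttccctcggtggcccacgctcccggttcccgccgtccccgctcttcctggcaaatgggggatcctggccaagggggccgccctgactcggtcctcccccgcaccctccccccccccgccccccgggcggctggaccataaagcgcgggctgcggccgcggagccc
Cyr61: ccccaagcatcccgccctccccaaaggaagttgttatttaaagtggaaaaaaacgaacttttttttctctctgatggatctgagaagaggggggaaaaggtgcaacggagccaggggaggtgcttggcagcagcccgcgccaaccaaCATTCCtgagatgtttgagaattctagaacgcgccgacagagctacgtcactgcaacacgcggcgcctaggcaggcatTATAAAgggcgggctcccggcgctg

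In the Tnc window the capitals are a TATAAA string, which lies 126 to 121 bases before this start. A further annotated Tnc start lies downstream, and its window holds the same TATAAA string at 205 to 200 bases and a SMAD element at 71 to 66 bases. The Thbs4 window has a GC content of 70.8% and holds a SMAD element at 227 to 222 bases and TEAD matches at 197 to 192 and 192 to 187 bases, which overlap by their shared end base. The Cyr61 window holds a TEAD match at 103 to 98 bases and a TATAAA string at 25 to 20 bases. Of the windows not shown, Thbs2 held a TATAAA match and 2 SMAD elements, Tnxb an AP-1 site 55 to 49 bases before its start, and Postn a TATAAA string 26 to 21 bases before 1 of its starts. Among 32851 mouse windows of the same length, 12.6% held the TEAD string, 17.1% the SMAD string, 6.75% the AP-1 string, 12.4% the TATA string and 1.47% a CArG box, which no window of the set held. These matches describe letters and not bound sites.

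A gene was counted as higher in a segment when its mean log2 ratio of arch over thoracic signal was at least 1 in size, a 2-fold difference, and each array gave at least 1.5-fold in the same direction. None of the 10 genes was higher in the arch by these limits, where 0.473% of all genes compared were (108 genes). Tnc was higher in the thoracic pool, where 0.145% of all genes were (33 genes). Of the other 9 genes none reached 1.5-fold in either direction under the reported processing, a size that 1.86% of all genes reached. Thbs1 did pass that size when no offset was added to the signals (log2 ratio 0.66) and in the deposited log ratios (0.71). The 10 log2 ratios ran between -1.19 and 0.52 with a median of 0.14, and 6 lay above 0, beside a median of -0.01 and 47.3% above 0 over all genes. In bulk tissue, fewer cells of a type and less RNA per cell cannot be told apart.

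**Figure D1:**
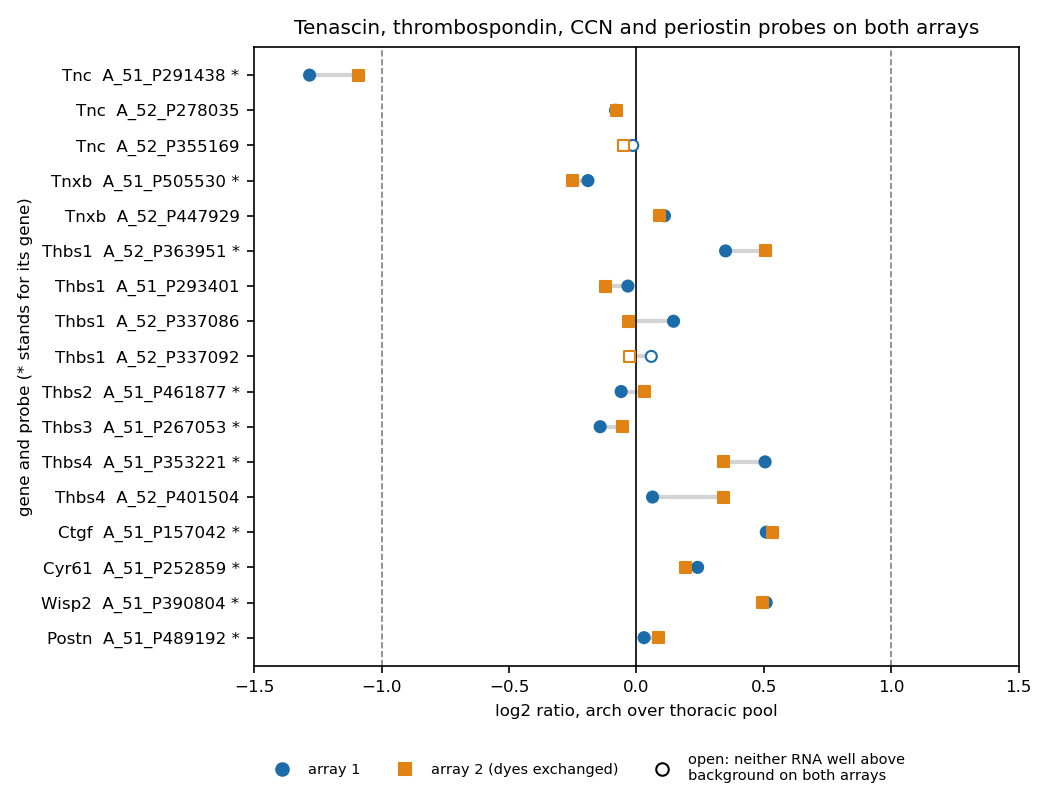
Log2 ratio of arch over thoracic signal (horizontal) for each of the 17 probes (rows) on array 1 (circles) and array 2 (squares), with dashed lines at a 2-fold difference and open symbols for the 2 probes too dim to compare. The Tnc probe that stands for its gene lies beyond the left dashed line on both arrays, while a further Tnc probe lies at -0.08.

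Tenascin C, which is deposited in injured and remodelling vessel walls, had 3 probes that did not read alike. Probe A_51_P291438, designed to NM_011607, was on the mean over both pools the brighter of the Tnc probes that could be compared. It gave normalized signals of 207 and 197 in the arch pool on arrays 1 and 2, against 505 and 420 in the thoracic pool. Both thoracic values lay above both arch values, and the dye exchange left the direction as it was. The log2 ratio was -1.28 on array 1 and -1.09 on array 2, a mean of -1.19 ± 0.14, which is 2.28-fold higher in the thoracic pool. Of all genes compared, 0.0877% had a lower ratio, so Tnc stood at rank 21 counted from the thoracic end. In the scanner tables' own deposited log ratios the same probe stood at -1.46, where no offset is added to the signals.

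Probe A_52_P278035 also belongs to Tnc, and the files describe its target, AJ236880, as a partial mRNA of fibronectin type III domain C. That domain is among the repeats that alternative splicing of tenascin C can include or leave out. Its signals were 237 and 203 in the arch pool, against 251 and 214 in the thoracic pool. The pools overlapped, and the log2 ratio was -0.08 on each array (-0.08 ± 0.00). The third probe, A_52_P355169, also designed to NM_011607, was not well above background in either RNA on either array, so it gives no fold. The difference in Tnc therefore rests on 1 of the 2 probes that could be compared. That probe was the brighter of the 2 only through its thoracic signals. In the arch pool A_52_P278035 was the brighter on both arrays. With the median or the mean over both, the Tnc log2 ratio was -0.63, and Tnc no longer passed the limits. The cause of the difference between the probes was not tested.

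Tenascin X, encoded by Tnxb, is a tenascin of loose connective tissue that binds collagen fibrils and whose loss in people gives lax skin and joints. Its brighter probe, A_51_P505530, had signals of 422 and 369 in the arch pool, against 482 and 440 in the thoracic pool, a log2 ratio of -0.22 ± 0.04 or 1.17-fold higher in the thoracic pool. Within each array the thoracic value was the higher. The further probe, A_52_P447929, leaned the other way at 0.10 ± 0.01, with signals of 89.4 and 83.3 in the arch pool and 82.9 and 78.1 in the thoracic pool. The Tnxb probes thus had opposite signs on both arrays, and the median over them was -0.06. In the deposited log ratios, where no offset is added, A_51_P505530 stood at -0.26 and the dimmer A_52_P447929 at 0.31.

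**Figure D2:**
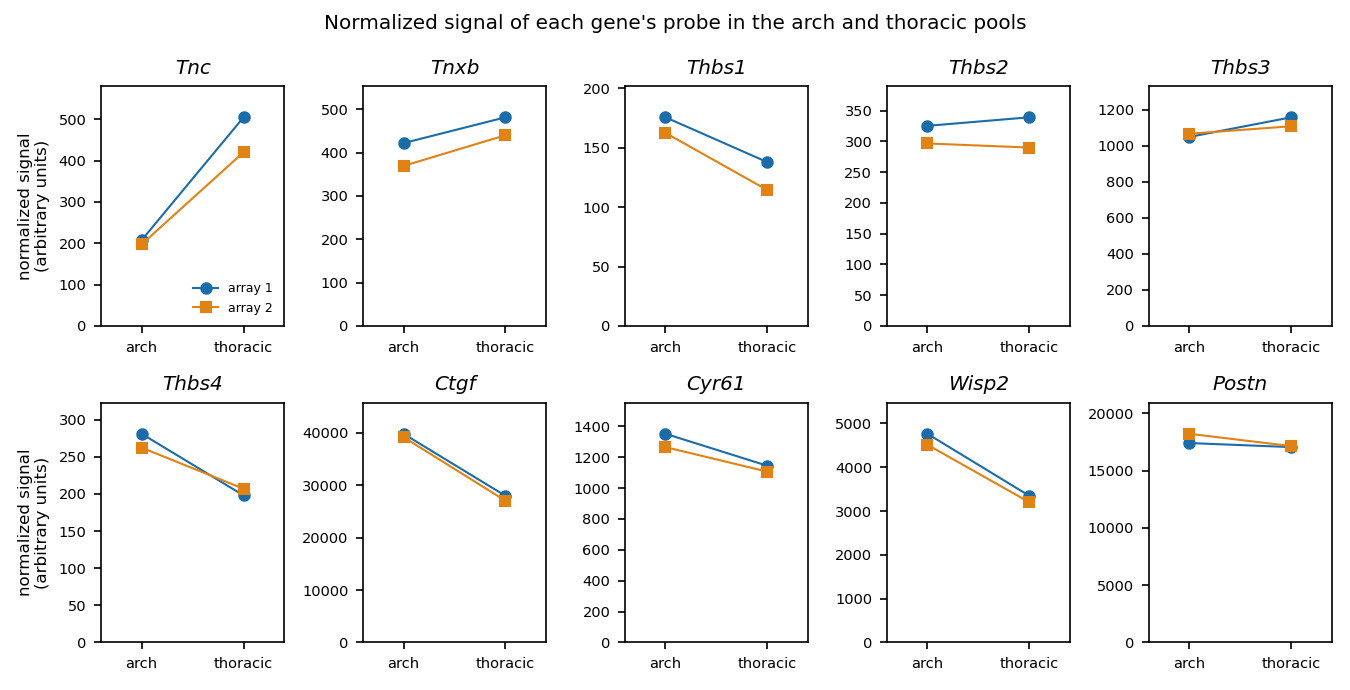
Normalized signal (vertical, arbitrary units, starting at 0) in the arch and thoracic pools for the probe that stands for each of the 10 genes, with 1 line per array. The Tnc lines climb to 505 and 420 in the thoracic pool, while the Ctgf, Wisp2, Thbs1 and Thbs4 lines are higher in the arch pool.

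Thbs1 encodes thrombospondin-1, an inhibitor of angiogenesis that can also activate latent transforming growth factor beta. Its brightest probe, A_52_P363951, had signals of 176 and 162 in the arch pool, against 138 and 114 in the thoracic pool. The arch values were the higher on both arrays, and the log2 ratio was 0.35 and 0.51, a mean of 0.43 ± 0.11 or 1.35-fold higher in the arch pool. Its log2 ratio was 0.66 with no offset and 0.71 in the deposited log ratios. The other Thbs1 probes did not share the difference. A_51_P293401 stood at -0.08 ± 0.06, A_52_P337086 at 0.06 ± 0.13 with opposite signs on the 2 arrays, and A_52_P337092 was well above background on 1 array in the arch RNA and on none in the thoracic RNA. The median over the 3 probes that could be compared was 0.06.

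Thrombospondin-2, from Thbs2, shares the antiangiogenic part of thrombospondin-1 and is known for collagen fibril assembly. Its probe had signals of 325 and 296 in the arch pool and 339 and 290 in the thoracic pool, so the pools overlapped, and the log2 ratio changed sign between arrays (-0.06 and 0.03, mean -0.01 ± 0.07). Thbs3 and Thbs4 encode pentameric thrombospondins, which lack the antiangiogenic repeats. Thbs3 had signals of 1050 and 1068 in the arch pool, against 1159 and 1110 in the thoracic pool, a log2 ratio of -0.10 ± 0.06 that 19.0% of all genes lay below. The thoracic values were the higher by 1.07-fold on average.

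Thbs4 is known from heart, muscle and tendon matrix. Its brighter probe, A_51_P353221, had signals of 281 and 262 in the arch pool, against 198 and 207 in the thoracic pool. Both arch values lay above both thoracic values, and the log2 ratio was 0.50 and 0.34, a mean of 0.42 ± 0.12 or 1.34-fold higher in the arch pool. The further probe, A_52_P401504, had the same sign on both arrays at 0.06 and 0.34, a mean of 0.20 ± 0.20. Its spread between arrays was as large as its mean. Of all genes, 2.69% had a higher ratio than Thbs1 and 2.76% a higher ratio than Thbs4.

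Ctgf and Cyr61 are direct targets by which YAP and TAZ activity is often read. Ctgf, connective tissue growth factor, had signals of 39838 and 39200 in the arch pool, against 27989 and 27055 in the thoracic pool. The arch values were well above the thoracic values on both arrays, and the log2 ratio was 0.51 and 0.53, a mean of 0.52 ± 0.02 or 1.44-fold higher in the arch pool. Of all genes, 1.79% had a higher ratio. Without loess, which removes a trend of the ratio with brightness, the Ctgf ratio was 0.29. The order of Ctgf, Wisp2, Thbs1 and Thbs4 among themselves changed with the processing: Ctgf was below the other 3 without loess and with an offset of 0.

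Wisp2 is a CCN protein without the carboxy-terminal module of its relatives and is known to restrain smooth muscle cell growth in rats. It gave signals of 4765 and 4514 in the arch pool, against 3348 and 3202 in the thoracic pool. The log2 ratio was 0.51 and 0.50 on the 2 arrays, a mean of 0.50 ± 0.01 or 1.42-fold higher in the arch pool, and 0.41 without loess. Cyr61, a ligand of integrins that promotes angiogenesis, had signals of 1352 and 1266 in the arch pool, against 1145 and 1106 in the thoracic pool. Its log2 ratio of 0.22 ± 0.03, 1.16-fold, was the lowest of the 3 CCN genes, and 8.66% of all genes had a higher one. All 3 CCN genes were thus higher in the arch pool, by amounts under 1.5-fold, where 47.3% of all genes had a ratio above 0. The 2 arrays held the same pools, so their agreement in sign is technical only.

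Postn encodes periostin, a fasciclin-domain protein that binds tenascin C and collagen and is known from heart valves and healing tissue. Its signals were 17398 and 18205 in the arch pool and 17043 and 17132 in the thoracic pool. The log2 ratio was 0.03 and 0.09, a mean of 0.06 ± 0.04, above 0 on both arrays, and it was -0.13 without loess, so its sign depended on the normalization. A probe that the files name A630052E07Rik and whose accession RefSeq gives to Postn lay outside the naming rule and stood at 0.11 ± 0.00.

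**Figure D3:**
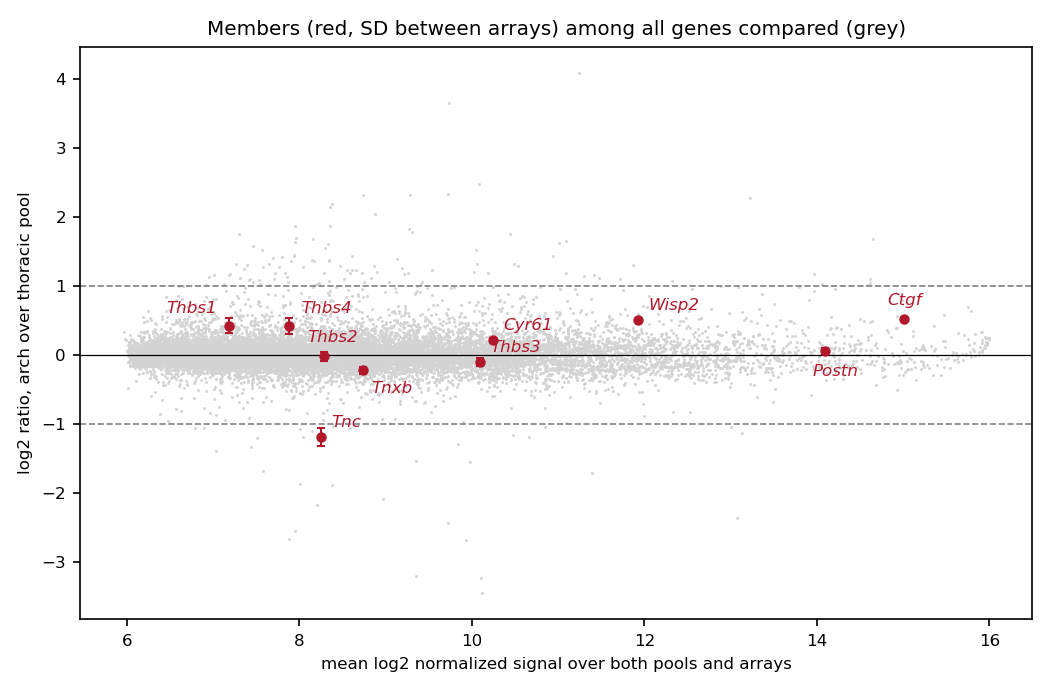
Log2 ratio of arch over thoracic signal (vertical) against the mean log2 normalized signal over both pools and arrays (horizontal) for all 22812 genes (grey) and the 10 genes of the set (red, bars are the SD between arrays), with dashed lines at a 2-fold difference. Tnc lies below the lower dashed line at -1.19, and the other 9 genes lie between -0.22 and 0.52.

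The choice of processing moved some of these values. Across 14 alternatives, Tnc stayed within -1.46 and -0.63 and passed the limits in 12 of them, failing them with the median and the mean over its probes. Those 12 all read the same Tnc probe, and both forms of the deposited ratios gave the same -1.46, so they were not separate checks. The changed filters, the removal of saturated probes and the lower threshold left its value at -1.19, so they were no check on it. Thbs1 ranged between 0.06 and 0.71, Thbs4 between 0.31 and 0.54, Ctgf between 0.29 and 0.53, Wisp2 between 0.41 and 0.51, Cyr61 between 0.19 and 0.24 and Tnxb between -0.26 and -0.06. Thbs2, from -0.06 to 0.03, and Postn, from -0.13 to 0.09, took both signs.

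**Figure D4:**
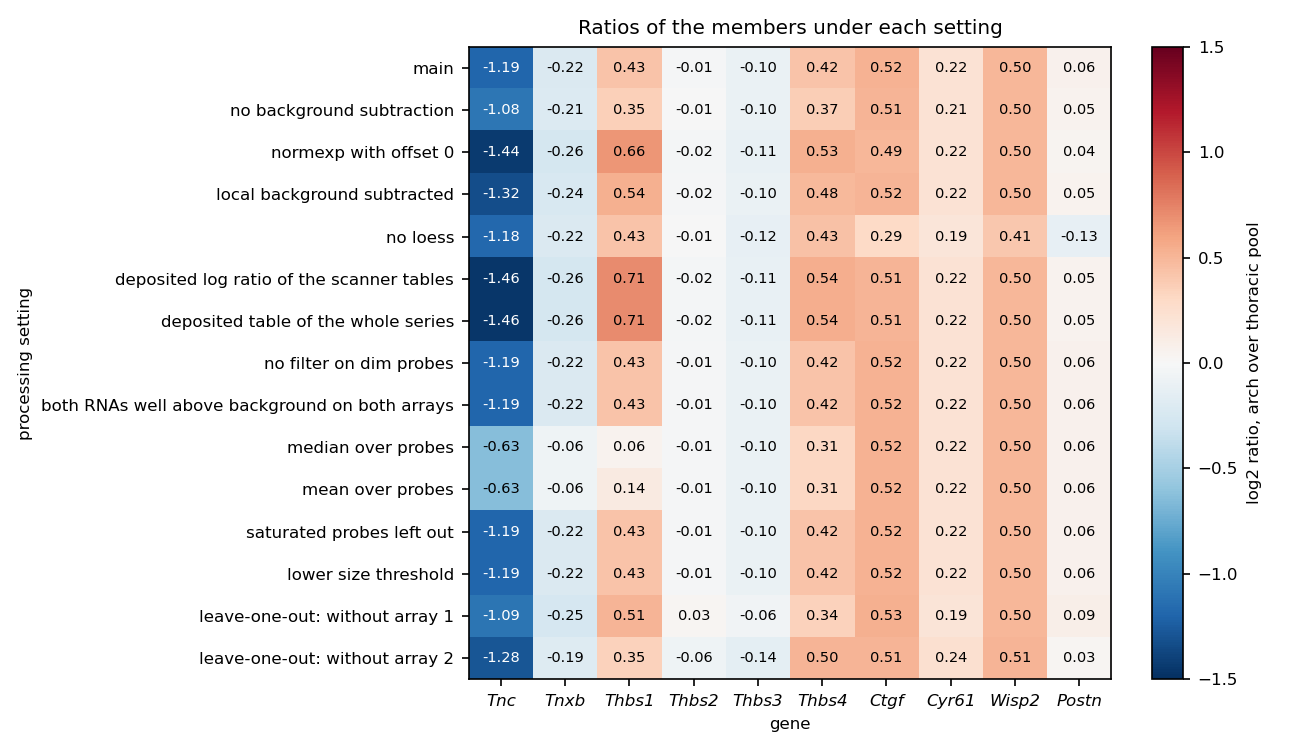
Log2 ratio of arch over thoracic signal (colour and printed value) of each of the 10 genes (columns) under the reported processing and 14 alternatives (rows). Tnc is below 0 in every row and nearest to it, at -0.63, where its probes are combined, and Ctgf drops to 0.29 without loess.

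Of the genes related to the set, 12 of 14 other matricellular genes could be compared, and Tnn and Ccn6 could not. Spp1 and Cthrc1 passed the limits for the arch and none for the thoracic pool, 10 of the 12 lay above 0, and the median log2 ratio was 0.50. Spp1, osteopontin, which is abundant in lesion macrophages, stood at 2.27 ± 0.02. Cthrc1, a collagen triple-helix repeat protein of injured arteries, stood at 1.27 ± 0.19 with its further probe at -0.22. Smoc1, a calcium-binding protein related to SPARC, was at 0.97 ± 0.09. The CCN relative Nov, now Ccn3, was at 0.85 ± 0.06, above the 3 CCN genes of the set.

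All 17 receptor genes were compared, none passed the limits, 11 lay above 0 and the median log2 ratio was 0.05. Lrp1, an endocytic receptor that takes up thrombospondins and binds Ctgf, was at 0.83 ± 0.03. The integrin subunit gene Itga6, whose product binds Cyr61 and laminins, was at 0.74 ± 0.01 with a further probe at 0.48, and the leukocyte subunit gene Itgb2 was at 0.43 ± 0.10. Itga8, whose integrin binds tenascin C, was at -0.37 ± 0.08, with further probes between -0.32 and -0.09. It thus leaned the same way as the probe that stands for Tnc, without passing the limits, while a further Tnc probe stood at -0.08. Other integrin subunit genes did not all share that sign. Itgb1 was at -0.22 with further probes between -0.20 and 0.04, and Itgav at -0.17 with further probes between 0.10 and 0.12. Itga9 was at -0.10 with a further probe at 0.02, and Itgb3 was at 0.12. A link between Itga8 and Tnc was not tested.

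Regulators upstream of these genes numbered 22, of which none passed the limits, 18 lay above 0 and the median log2 ratio was 0.09. Wwtr1, the gene of TAZ, was at 0.63 ± 0.05 with a further probe at 0.41, and Smad3, which carries the transforming growth factor beta signal to the nucleus, was at 0.41 ± 0.11. Klf5, a zinc finger factor of growing smooth muscle cells, was at -0.50 ± 0.03. Prrx1, a homeobox factor reported to activate the Tnc gene in rat smooth muscle cells, was at -0.44 ± 0.11, with 4 further probes between -0.39 and -0.28. All 5 Prrx1 probes were thus lower in the arch pool, but they read the same pools. The transforming growth factor beta genes Tgfb1 (0.37), Tgfb2 (0.32) and Tgfb3 (0.05) lay above 0, as did Smad3. A link of Prrx1 or of these genes to Tnc was not tested.

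Among 20 targets of YAP and TAZ other than Ctgf and Cyr61, none passed the limits, 17 lay above 0 and the median log2 ratio was 0.21. Igfbp3, an insulin-like growth factor binding protein, was at 0.86 ± 0.09 with a further probe at -0.01. The ecto-enzyme gene Nt5e was at 0.69 ± 0.10 and the membrane repair gene Myof at 0.66 ± 0.12, with further Myof probes between 0.22 and 0.50. The forkhead gene Foxf2 lay the other way at -0.63 ± 0.04.

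Of 12 matrix partners 11 were compared, all but Col12a1. None passed the limits, 8 lay above 0 and the median log2 ratio was 0.24, with Col3a1 and Dcn saturated. Vcan, the proteoglycan versican, which tenascins bind, was at -0.93 ± 0.06, with a further probe at -0.18. Bgn, a small proteoglycan of collagen fibrils, was at 0.65 ± 0.06, Col14a1, a fibril-associated collagen bound by tenascin X, at 0.53 ± 0.05 with a further probe at 0.07, and the type I collagen gene Col1a2 at 0.35 ± 0.11.

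**Figure D5:**
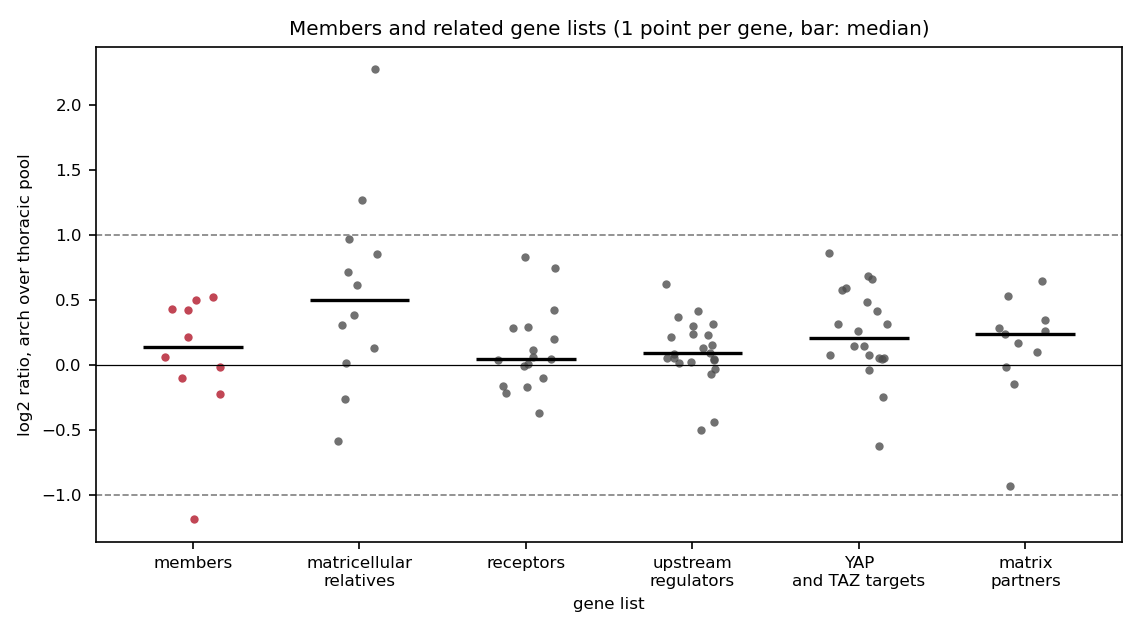
Log2 ratio of arch over thoracic signal (vertical) of the 10 genes of the set (red) and of the genes compared in 5 related lists (grey), 1 point per gene with a bar at each median and dashed lines at a 2-fold difference. Tnc is the lowest point shown and Spp1, at 2.27, the highest.

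The labels name smooth muscle as the tissue studied, and all 8 smooth muscle markers were well above background in both pools. None passed the limits, 7 of the 8 lay above 0 and the median log2 ratio was 0.17. Tagln, Acta2 and Myl9 were saturated, and their ratios changed sign between the arrays (Acta2 0.79 and -0.29). Markers of other cells were also above background in both pools, and several lists lay toward the arch, as did Ctgf, Wisp2, Thbs1 and Thbs4. For mesothelium 7 of 8 markers were higher in the arch (median log2 ratio 1.37), and their summed normalized signals were 8294 and 7788 in the arch pool against 3130 and 3023 in the thoracic pool. Heart muscle had 5 of 12 (median 0.49), macrophages 4 of 12 (0.28), cartilage 3 of 10 (0.16), adventitial fibroblasts 1 of 10 (0.31) and endothelium 1 of 12 (0.39). The fibroblast sums were 119526 and 117374 in the arch pool against 96106 and 99128 in the thoracic pool, and those of endothelium 3116 and 3060 against 2097 and 2034.

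No marker of platelets (median 0.20), tendon and ligament (-0.01), skeletal muscle (-0.04) or Schwann cells (0.04) passed the limits. None of the markers in the 11 lists was higher in the thoracic pool by these limits, where 0.145% of all genes were. With so small a share, the lack of such a marker says nothing about Tnc. Summed platelet signals were 9850 and 9770 in the arch pool against 12260 and 12416 in the thoracic pool, and those of tendon and ligament 2514 and 2519 against 2572 and 2704, both sums being higher in the thoracic pool on each array. Of the 6 platelet markers, Pf4 alone lay below 0 (-0.44 ± 0.03), and the other 5 lay above it. The part of these cell types in the members' ratios was not tested.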

How the data were processed

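Each array's table holds deposited spot intensities, mean signals and local backgrounds on a linear scale, written by Agilent Feature Extraction (version 8.1.1.1 per the file headers, 9.1.1.1 per the submitters' processing notes). The deposited series table holds log10 ratios, which correlated with the scanner tables' log ratios at 1.00 once turned to arch over thoracic. In limma 3.58.1 (R 4.3.3), the deposited intensities were background-corrected (normexp, offset 50) and loess-normalized within arrays, giving control spots no weight; 8 and 5 outlier spots were left out. Array 1 was turned and both arrays averaged on the log2 scale, as 1 replicate. Normalized signals are those after Aquantile scaling and include the offset, which narrows ratios of dim probes. Of 41174 gene probes, 32183 had an RNA well above background on both arrays, and the brightest of these stood for its gene. The number of arrays limits the precision. The calculation was tested on simulated data. The median SD between arrays was 0.06 over all genes. All 10 genes were named, with up to 4 genes per list by calls and then size. The members and lists were chosen with earlier results of these data known. Alternatives covered background, normalization, deposited ratios, filters, probe choice, saturation, threshold and each array alone.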

Additional observations from a re-analysis of the deposited data

How the results depend on the processing

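The count of genes of the set higher in the arch was 0 under every alternative run. The count higher in the thoracic pool was 1 under 12 alternatives and 0 with the median over probes and 0 with the mean over probes, which bring in the Tnc probe at -0.08. The 12 all read 1 and the same Tnc probe, and both forms of the deposited ratios among them gave the same value. Leaving out array 1 gave Tnc -1.09, and leaving out array 2 gave -1.28, both past 2-fold. No paired analysis was possible because each segment was 1 pool. The 2 arrays measure dye and hybridisation error and not the spread between mice. The Tnc and Thbs1 probe sets each held 1 probe too dim to compare, and probes of Tnc, Tnxb and Thbs1 disagreed, for which the cause was not tested.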
